A study of Mus musculus with 16 samples.

Results

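Muscle of mice given a high-fat diet (HFD) from 3 weeks of age was compared with muscle of mice of the same age on a normal chow diet (NCD), in bulk RNA sequencing of the tibialis anterior (TA). The libraries compared are those labelled Juvenile-HFD and Juvenile-NCD, 8 of the 16 in the series, chosen by these labels. The study asked how an HFD begun early in life acts on muscle growth and function. The mice are labelled C57BL/6J wild type and were males of the substrain C57BL/6JGpt. Both juvenile groups began their diets at 3 weeks of age and stayed on them for 4 weeks, with 4 mice in each group. The other 8 libraries came from mice that began the same diets at 8 weeks of age, 4 in the Adult-NCD and 4 in the Adult-HFD group, also for 4 weeks, and their values are set beside the juvenile ones. Each library came from 1 mouse, and its values are reads counted per gene.

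The juvenile libraries held 14068762 to 15896282 counts. Levels are given as CPM, counts scaled to library size with TMM factors, and the values of the mice follow the replicate numbers 1 to 4. The tissue label was checked against 12 markers of the skeletal muscle fibre, all of which passed the filter on low counts. Acta1, the skeletal muscle actin gene, was the most abundant of them per length and had 33314, 33851, 32096 and 32645 CPM in the Juvenile-NCD mice and 30710.0, 27281, 30905 and 32999 CPM in the Juvenile-HFD mice. The share of counts on mitochondrially encoded genes was 12.5%, 10.6%, 4.79% and 10.1% in the Juvenile-NCD mice and 15.5%, 11.5%, 13.8% and 11.7% in the Juvenile-HFD mice. Juvenile-NCD replicate 3 had the lowest share and the groups overlapped. The means differed by 3.64 percentage points (2-sided exact permutation test over 70 splits, p = 0.0857, where the smallest possible p is 0.0286). Without Juvenile-NCD replicate 3 the difference was 2.07 percentage points, and its p was 0.171 in an exact permutation test, whose smallest possible p is then 0.0571.

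Skeletal muscle burns glucose and fatty acids and shifts between them with feeding, fasting and work. Fatty acids act on transcription through the PPAR nuclear receptors, while insulin acts through its receptor substrates on glucose uptake, glycogen and growth. Immediate-early genes are transcribed within minutes of contraction, stretch, stress or hormones without new protein synthesis, and heat shock genes answer unfolded protein.

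Of the 14230 genes tested, 73 were higher (0.513% of those tested) and 67 lower (0.471%) in Juvenile-HFD muscle at an adjusted p under 0.05. At an unadjusted p under 0.05 there were 1784 genes (12.5%). Every adjusted p named edgeR comes from the quasi-likelihood test of edgeR, adjusted by Benjamini and Hochberg's method. Of the higher genes 69 and of the lower genes 64 were protein coding. Among these called genes the lower ones moved further. Of them 30 had an absolute log2 fold change over 1, against 17 of the higher genes, and the medians were -0.85 and 0.73. Both sets were chosen by their adjusted p, so these sizes describe the called genes and test nothing. The groups did not overlap in CPM for all 73 higher and for 60 of the lower genes, where 3.49% of all genes tested lay above and 3.64% below without overlap. With an absolute log2 fold change over 0.5 and an unadjusted p under 0.05, which are the thresholds in the methods of the series, 446 genes were higher (3.13%) and 292 lower (2.05%). The number of higher genes was 31 without Juvenile-NCD replicate 2, 36 without Juvenile-HFD replicate 3, 39 without Juvenile-NCD replicate 4 and 44 without Juvenile-HFD replicate 4. The number of lower genes was 27 without Juvenile-HFD replicate 3 and 33 without Juvenile-NCD replicate 2.

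In the adult mice, by the same test, 28 genes were higher (0.201% of 13940 tested) and 7 lower (0.0502%). The mitochondrial share of counts was 13.1%, 5.79%, 1.04% and 10.7% in the Adult-NCD mice. In the Adult-HFD mice it was 18.5%, 11.9%, 13.3% and 17.6%. Adult-NCD replicate 3 had the lowest share and correlated at 0.954 to 0.972 in log2 CPM with the other mice of its group. Its part in the adult list values was not tested. With Adult-NCD replicates 1 to 4 left out in turn the adult counts were 12, 5, 47 and 16 higher and 4, 3, 12 and 2 lower genes. With Adult-HFD replicates 1 to 4 left out in turn they were 6, 32, 23 and 17 higher and 2, 27, 3 and 2 lower genes. Of the 73 genes higher in juvenile mice, 71 were tested in adults, 59 of these had an adult fold change above 0 and 20 were called there, with an adult median of 0.57. Among the 67 lower genes, all tested in adults, 50 had an adult fold change below 0 and 1 was called there, with an adult median of -0.24. The genes were chosen by their juvenile values, so these counts describe them and test nothing. The difference between the ages was tested by edgeR's interaction of diet and age over all 16 libraries, in which 2 of 14812 genes (0.0135%) had an adjusted p under 0.05 and 1669 (11.3%) an unadjusted p under 0.05. The called genes were Per1 and Jun, both with the juvenile effect below the adult one. Without any 1 of 11 libraries neither direction gave a call, and otherwise the number below was 10 without Juvenile-NCD replicate 3, 8 without Juvenile-HFD replicate 1, 2 and 3 with Adult-NCD replicates 3 and 4 left out in turn, and 23 without Adult-HFD replicate 2. No gene had a called juvenile effect above the adult one by edgeR, against 39 by DESeq2, and left-out fits gave 1 without Juvenile-NCD replicate 3, 2 without Juvenile-HFD replicate 1 and 60 without Adult-HFD replicate 2.

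**Figure D1:**
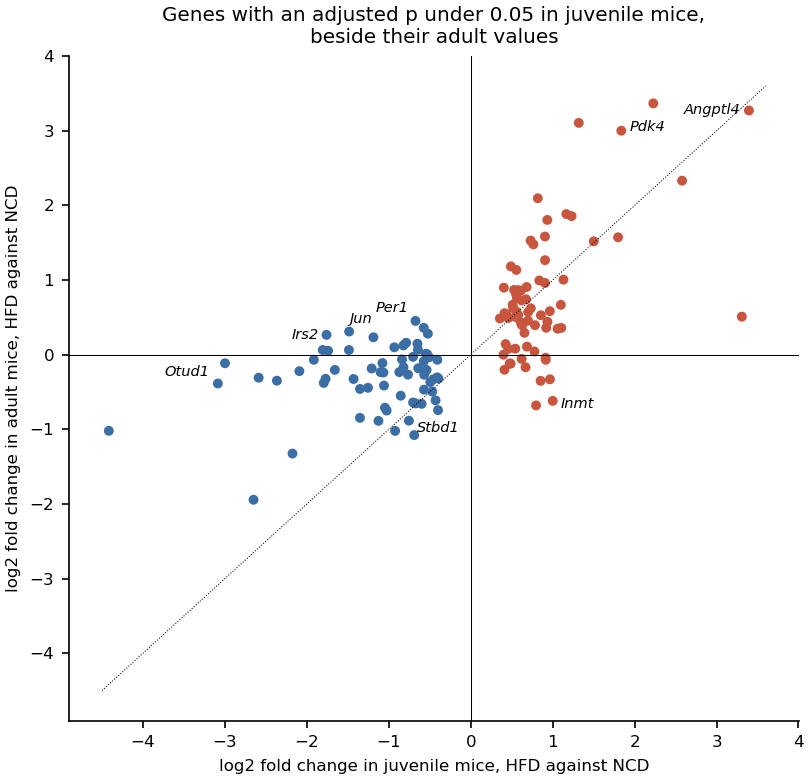
Each point is a gene with an adjusted p under 0.05 in juvenile mice (red higher, blue lower in the HFD group), with its log2 fold change of HFD against NCD in juvenile mice on the horizontal and in adult mice on the vertical axis. The dotted line marks equal values, and the lower genes have a median of -0.85 on the juvenile and -0.24 on the adult axis.

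Genes of fuel use were among the higher ones. The gene lists share members, so a gene can count in more than 1 list. List counts stand beside the shares of all genes tested, 12.5% at an unadjusted p under 0.05, 2.63% (374 genes) by DESeq2 and 0.984% by edgeR. Brackets after a list median give the lowest and highest median over the fits without 1 mouse and the range of higher genes, where such a fit turned the direction or moved a value by over 1.5 times. In the lipid oxidation list 20 of 48 rose and none fell, with a median of 0.41 beside 0.00 for all genes tested. In that list 31 higher and 1 lower genes had an unadjusted p under 0.05, and DESeq2 called 27 higher and no lower. A kinase and a phosphatase of pyruvate dehydrogenase, the gate from glucose into the citrate cycle, both rose, Pdk4 as the kinase that closes it and Pdp2 as the phosphatase that opens it. Pdp2 (ENSMUSG00000048371.8, chromosome 8 from 104591451 to 104599026, GRCm38) had 8.80, 6.83, 5.57 and 5.63 CPM in the Juvenile-NCD mice and 11.1, 13.9, 17.2 and 15.2 CPM in the Juvenile-HFD mice. All HFD mice lay above all NCD mice, with a log2 fold change of 1.10 (SE 0.18, edgeR adjusted p = 0.0102). Pdk4, which is in the lipid oxidation list as well, had a log2 fold change of 1.84 (SE 0.24), and the pair were the only 2 called among the 33 genes of pyruvate dehydrogenase and the citrate cycle. Of these 21 were higher and 12 lower at a median of 0.02 (-0.01 without Juvenile-HFD replicate 3 to 0.08 without Juvenile-HFD replicate 2, with 15 to 30 higher). Here 3 higher and no lower genes had an unadjusted p under 0.05, and DESeq2 called 2 higher and no lower. Glycolysis and glucose uptake genes leaned the other way, with 24 of 31 lower, a median of -0.14 and 1 called by edgeR, Txnip, which restrains glucose uptake and rose by 1.10 on the log2 scale. In this list 4 higher and 6 lower genes had an unadjusted p under 0.05, and DESeq2 called 2 higher and 3 lower. Their summed level was 42061, 43678, 45326 and 42561 CPM in the Juvenile-NCD mice and 40312, 35748, 40434 and 40349 CPM in the Juvenile-HFD mice. Juvenile-HFD replicate 2 lay below the other 3 mice of its group. The number of glycolysis genes that rose was 2 without Juvenile-NCD replicate 3, and 1 fell without Juvenile-NCD replicate 1.

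Mitochondrial carriers and peroxisomal genes held further calls. Ucp2 (ENSMUSG00000033685.13, chromosome 7 from 100493337 to 100502020), a carrier of the inner mitochondrial membrane, had 33.7, 46.1, 38.2 and 37.7 CPM in the Juvenile-NCD mice and 69.4, 77.3, 56.6 and 55.7 CPM in the Juvenile-HFD mice. The groups did not overlap, and it rose by 0.73 on the log2 scale (SE 0.12, edgeR adjusted p = 0.0117). Its edgeR adjusted p was 0.136 with all 16 libraries in 1 fit, in a range of 1.21e-09 to 0.136 over the 16 alternatives. Of the 22 genes of uncoupling and mitochondrial carriers, 3 rose and 1 fell, with 15 higher and a median of 0.09 (0.04 without Juvenile-NCD replicate 1 to 0.13 without Juvenile-HFD replicate 1, with 12 to 14 higher). Among the carriers 6 higher and 3 lower genes had an unadjusted p under 0.05, and DESeq2 called 3 higher and 1 lower. The others that rose were Slc25a34, an orphan carrier, and Slc25a20, also of the lipid oxidation list, which takes acylcarnitines into the mitochondrion, while Slc25a25, an ATP-Mg and phosphate carrier, fell. The number of carriers that rose was 1 when Juvenile-NCD replicate 4, Juvenile-HFD replicate 3 or Juvenile-HFD replicate 4 was left out, and the adjusted p of Slc25a20 was 0.103 without Juvenile-NCD replicate 2, 0.0995 without Juvenile-NCD replicate 4, 0.0962 without Juvenile-HFD replicate 3, 0.0866 without Juvenile-HFD replicate 4 and 0.0896 with all 16 libraries in 1 fit, in a range of 5.15e-08 to 0.103 over the 16 alternatives. For Slc25a34 it was 0.0586 without Juvenile-NCD replicate 1, 0.0790 without Juvenile-NCD replicate 3, 0.1196 without Juvenile-NCD replicate 4, 0.115 without Juvenile-HFD replicate 3, 0.0986 without Juvenile-HFD replicate 4 and 0.407 with all 16 libraries in 1 fit, in a range of 8.53e-09 to 0.407 over the 16 alternatives. Catalase, encoded by Cat (ENSMUSG00000027187.10, chromosome 2 from 103453849 to 103485160), breaks down hydrogen peroxide made in peroxisomes. Cat had 133, 122, 104 and 110.4 CPM in the Juvenile-NCD mice and 172, 189, 209 and 209 CPM in the Juvenile-HFD mice, without overlap (log2 fold change 0.73, SE 0.10, edgeR adjusted p = 0.00276). Its edgeR adjusted p was 0.0754 with all 16 libraries in 1 fit, in a range of 1.13e-11 to 0.0754 over the 16 alternatives. In adults Cat rose by 1.53 on the log2 scale (edgeR adjusted p = 0.0158). The peroxisomal lipid metabolism list had 23 of 32 genes higher and a median of 0.05 (0.03 without Juvenile-HFD replicate 1 to 0.10 without Juvenile-HFD replicate 2, with 19 to 22 higher), with Cat among those called. In it 6 higher and no lower genes had an unadjusted p under 0.05, and DESeq2 called 5 higher and no lower. In the antioxidant and NRF2 list 27 of 46 genes were higher, the median was 0.03 (0.01 without Juvenile-NCD replicate 3 to 0.04 without Juvenile-NCD replicate 2, with 23 to 30 higher), and the 2 called were Txnip and Cat, both counted above. In this list 4 higher and 2 lower genes had an unadjusted p under 0.05, and DESeq2 called 3 higher and no lower.

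Triglyceride storage genes gave 5 calls among 32, all higher, with 21 members higher and a median of 0.15. For storage genes 13 higher and 1 lower genes had an unadjusted p under 0.05, and DESeq2 called 7 higher and no lower. Gpam (ENSMUSG00000024978.11, chromosome 19 from 55067268 to 55127238) encodes the mitochondrial acyltransferase that starts glycerolipid synthesis, and had 409.6, 391, 394 and 369 CPM in the Juvenile-NCD mice and 513, 536, 621 and 628 CPM in the Juvenile-HFD mice. The HFD mice were all higher, by 0.56 on the log2 scale (SE 0.09, edgeR adjusted p = 0.00800). Lipe, the hormone-sensitive lipase gene, rose by 0.91. The other calls were Plin5 and Plin2, coats of lipid droplets, and Agpat2, the acyltransferase of the next step, with log2 fold changes of 0.94, 0.46 and 0.70. The edgeR adjusted p of Plin5 was 0.0692 without Juvenile-NCD replicate 4, 0.0613 without Juvenile-HFD replicate 3, 0.0557 without Juvenile-HFD replicate 4 and 0.121 with all 16 libraries in 1 fit, in a range of 8.68e-16 to 0.121 over the 16 alternatives. That of Plin2 was 0.0619 to 0.101 when any 1 mouse but Juvenile-HFD replicate 1 was left out and 0.108 with all 16 libraries in 1 fit, in a range of 0.00214 to 0.108 over the 16 alternatives, and that of Agpat2 was 0.0619 to 0.0974 when any 1 mouse but Juvenile-NCD replicate 2 or Juvenile-HFD replicate 1 was left out, in a range of 0.00173 to 0.0974 over the 16 alternatives. Lipe and Plin5 are in the lipid oxidation list as well. The count of calls was 2 when Juvenile-NCD replicate 4, Juvenile-HFD replicate 3 or Juvenile-HFD replicate 4 was left out and 3 when Juvenile-NCD replicate 1, Juvenile-NCD replicate 3 or Juvenile-HFD replicate 2 was left out. In the ketone body metabolism list 4 of 9 genes were higher and 5 lower, with a median of -0.04 (-0.11 without Juvenile-HFD replicate 2 to 0.00 without Juvenile-HFD replicate 1, with 3 to 4 higher). Glycogen genes were split, with 11 of 24 higher, a median of -0.02 (-0.07 without Juvenile-NCD replicate 2 to 0.00 without Juvenile-NCD replicate 1, with 10 to 12 higher) and 1 called. In the glycogen list 1 higher and 2 lower genes had an unadjusted p under 0.05, and DESeq2 called no higher and 1 lower. The called gene was Stbd1 (ENSMUSG00000047963.7, chromosome 5 from 92603041 to 92606579), which tethers glycogen to membranes, with 56.0, 56.5, 67.3 and 58.6 CPM in the Juvenile-NCD mice and 37.2, 32.9, 32.5 and 38.7 CPM in the Juvenile-HFD mice. All HFD mice were lower, by a log2 fold change of -0.75 (SE 0.09, edgeR adjusted p = 0.00216), and in adults Stbd1 fell as well (log2 fold change -0.88, edgeR adjusted p = 0.0291). Without Juvenile-HFD replicate 1, 2 glycogen genes fell.

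**Figure D2:**
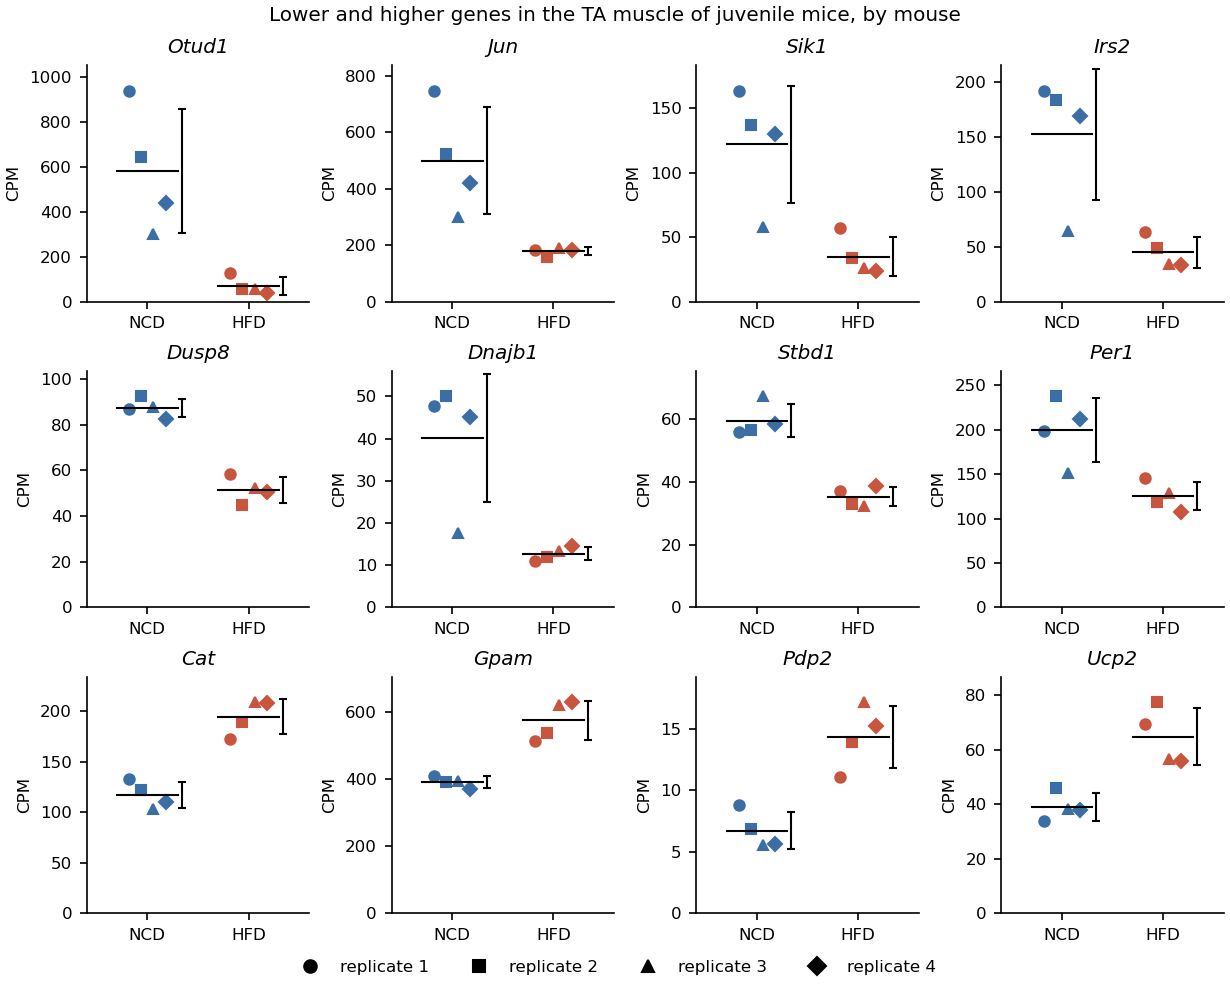
Level in CPM of 12 genes called in juvenile TA muscle, with 1 point per mouse (the marker shape gives the replicate number), a line for the mean and a bar for its SD (n = 4). The NCD and HFD mice do not overlap in any panel, and for Otud1, Jun, Sik1, Irs2 and Dnajb1 the NCD mice spread more widely than the HFD mice, with Juvenile-NCD replicate 3 lowest.

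Of 3 insulin signalling genes that fell, a pair encode substrates of the receptor. Irs2 (ENSMUSG00000038894.7, chromosome 8 from 10984681 to 11008458), an insulin receptor substrate, had 192, 184, 64.04 and 169 CPM in the Juvenile-NCD mice and 63.5, 49.0, 34.1 and 33.3 CPM in the Juvenile-HFD mice. The groups came close but did not overlap, since Juvenile-NCD replicate 3 lay just above Juvenile-HFD replicate 1. Irs2 fell with a log2 fold change of -1.76 (SE 0.29, edgeR adjusted p = 0.0117), and its edgeR adjusted p was 0.0543 without Juvenile-HFD replicate 3, in a range of 2.84e-64 to 0.0543 over the 16 alternatives. In adults its log2 fold change was 0.27 (edgeR adjusted p = 0.481), and the interaction of diet and age had an edgeR adjusted p of 0.109. Irs1 (ENSMUSG00000055980.2, chromosome 1 from 82233101 to 82291416), the substrate that carries most of the insulin signal in muscle, had 145, 117, 133 and 217 CPM in the Juvenile-NCD mice and 103, 62.3, 57.1 and 46.7 CPM in the Juvenile-HFD mice. It fell without overlap (log2 fold change -1.19, SE 0.23, edgeR adjusted p = 0.0246), and 30.9% of its exon bases overlap another gene. For Irs1 the edgeR adjusted p was 0.0709 without Juvenile-NCD replicate 4, 0.0675 without Juvenile-HFD replicate 2, 0.0881 without Juvenile-HFD replicate 3, 0.0698 without Juvenile-HFD replicate 4 and 0.0787 with all 16 libraries in 1 fit, in a range of 2.09e-30 to 0.0881 over the 16 alternatives. Trib1, a pseudokinase gene, fell by a log2 fold change of -1.10 (edgeR adjusted p = 0.0117), and its edgeR adjusted p was 0.0565 without Juvenile-HFD replicate 3, in a range of 1.31e-24 to 0.0565 over the 16 alternatives. Tbc1d4, which holds the glucose transporter GLUT4 inside the cell until insulin acts, rose from 30.3 ± 2.71 to 43.7 ± 4.31 CPM (SD, n = 4). Its edgeR adjusted p of 0.0224 was 0.0622 without Juvenile-NCD replicate 2, 0.0544 without Juvenile-NCD replicate 3, 0.0813 without Juvenile-NCD replicate 4, 0.0835 without Juvenile-HFD replicate 3, 0.0539 without Juvenile-HFD replicate 4 and 0.465 with all 16 libraries in 1 fit, in a range of 0.000222 to 0.465 over the 16 alternatives. These 4 were the calls among 43 insulin and IGF signalling genes. In that list 25 were higher and 18 lower, with a median of 0.02 (-0.02 without Juvenile-NCD replicate 2 to 0.04 without Juvenile-HFD replicate 1, with 19 to 24 higher). There 6 higher and 5 lower genes had an unadjusted p under 0.05, and DESeq2 called 1 higher and 4 lower. The number that fell was 0 without Juvenile-HFD replicate 3.

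Among 32 autophagy genes 22 were higher, with a median of 0.09, and 2 rose, 0 when Juvenile-NCD replicate 2 or Juvenile-HFD replicate 4 was left out and 1 when Juvenile-NCD replicate 1, Juvenile-NCD replicate 3, Juvenile-HFD replicate 1, Juvenile-HFD replicate 2 or Juvenile-HFD replicate 3 was left out. For autophagy genes 7 higher and 1 lower genes had an unadjusted p under 0.05, and DESeq2 called 3 higher and no lower. Gabarapl1 (ENSMUSG00000030161.8, chromosome 6 from 129533160 to 129542346), whose product binds the autophagosome membrane, had 40.7, 43.0, 38.5 and 46.2 CPM in the Juvenile-NCD mice and 65.2, 56.8, 54.1 and 64.2 CPM in the Juvenile-HFD mice. The groups did not overlap (log2 fold change 0.51, SE 0.09, edgeR adjusted p = 0.0165), and 28.3% of its exon bases overlap another gene. The edgeR adjusted p of Gabarapl1 was 0.0622 without Juvenile-NCD replicate 2, 0.0548 without Juvenile-HFD replicate 4 and 0.343 with all 16 libraries in 1 fit, in a range of 0.000150 to 0.343 over the 16 alternatives. Ulk1, the kinase that starts autophagy, had a log2 fold change of 0.36 and an edgeR adjusted p of 0.0493, which was 0.0675 to 0.182 when any 1 mouse but Juvenile-NCD replicate 4 was left out, 0.0504 with RLE size factors and 0.539 with all 16 libraries in 1 fit, in a range of 0.00173 to 0.539 over the 16 alternatives. The muscle atrophy and ubiquitin ligase list had 19 of 32 genes tested higher and 13 lower, a median of 0.04 (0.01 without Juvenile-HFD replicate 3 to 0.07 without Juvenile-HFD replicate 4, with 17 to 20 higher), 11 genes at an unadjusted p under 0.05 (6 higher, 5 lower), 3 called by DESeq2 (all higher) and 0 by edgeR (on the higher side 1 when Juvenile-NCD replicate 1, Juvenile-HFD replicate 1 or Juvenile-HFD replicate 4 was left out and on the lower side 1 without Juvenile-HFD replicate 1 and 2 without Juvenile-NCD replicate 1). Its member with the smallest p was Cblb, a ubiquitin ligase gene, with a log2 fold change of 0.62 and an edgeR adjusted p of 0.0641 that was 0.0493 without Juvenile-NCD replicate 1, 0.0497 without Juvenile-HFD replicate 4, 0.00528 by DESeq2 on the same genes, 0.00663 by DESeq2 at its defaults and 0.000111 without a filter on low counts, in a range of 0.000111 to 0.203 over the 16 alternatives.

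The immediate-early genes were the list with the most genes that fell. Of 40 tested, 34 were lower and 15 fell, with a median of -1.10. In this list 3 higher and 30 lower genes had an unadjusted p under 0.05, and DESeq2 called 1 higher and 19 lower. Their summed level was 6436, 5178, 2824 and 4099.8 CPM in the Juvenile-NCD mice and 2542, 2119, 1797 and 1885 CPM in the Juvenile-HFD mice. Juvenile-NCD replicates 1 and 2 were the highest, and replicate 3 lay nearest the HFD mice. Jun (ENSMUSG00000052684.4, chromosome 4 from 95049034 to 95052222), a subunit of the AP-1 transcription factor, had 749, 525, 302 and 422 CPM in the Juvenile-NCD mice and 183, 157, 192 and 183 CPM in the Juvenile-HFD mice. The groups did not overlap, and the HFD mice lay close together (log2 fold change -1.48, SE 0.21, edgeR adjusted p = 0.00453). In adults Jun had a log2 fold change of 0.31 (edgeR adjusted p = 0.361), and the interaction term was -1.80 (SE 0.29, edgeR adjusted p = 0.0451). Klf2, a Krüppel-like transcription factor gene, fell from 121 ± 38.8 to 47.5 ± 10.9 CPM (SD, n = 4), with a log2 fold change of -1.35. Egr3, a zinc finger factor induced by contraction, fell from 12.2 ± 10.3 to 1.52 ± 0.571 CPM, with a log2 fold change of -2.999 that was -2.25 without Juvenile-NCD replicate 1. Its edgeR adjusted p of 0.0188 was 0.0630 without Juvenile-HFD replicate 3 and 0.0635 without Juvenile-HFD replicate 4, in a range of 2.68e-41 to 0.0635 over the 16 alternatives. The count of immediate-early genes that fell was 5 without Juvenile-HFD replicate 3, 6 without Juvenile-HFD replicate 4 and 8 without Juvenile-NCD replicate 2. In adults 28 of 39 were lower, with a median of -0.31 and none called by edgeR, while 17 had an unadjusted interaction p under 0.05.

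In the list of genes known to respond to contraction and stretch of muscle 6 of 30 fell, with 25 lower and a median of -0.25 (-0.35 without Juvenile-HFD replicate 1 to -0.23 without Juvenile-NCD replicate 3, with 4 to 9 higher). Of its 30 members 16 are in other lists, among them 4 of those that fell, Sik1 (immediate-early), Irs2 (insulin signalling), Hspb1 (heat shock) and Slc25a25 (carriers). In this list 1 gene rose without Juvenile-HFD replicate 4. In it 2 higher and 16 lower genes had an unadjusted p under 0.05, and DESeq2 called 1 higher and 8 lower. The adult median of this list was 0.20. Otud1 (ENSMUSG00000043415.5, chromosome 2 from 19657752 to 19660583), a deubiquitinase gene, had 939, 645, 302 and 437 CPM in the Juvenile-NCD mice and 127, 54.4, 55.6 and 37.0 CPM in the Juvenile-HFD mice. The lowest NCD mouse was above the highest HFD mouse, and Otud1 fell with a log2 fold change of -3.09 (SE 0.39, edgeR adjusted p = 0.00234). In adults its log2 fold change was -0.39, and its interaction term of -2.71 had an edgeR adjusted p of 0.109. Sik1 (ENSMUSG00000024042.7, chromosome 17 from 31844250 to 31855804), a kinase gene switched on through cAMP and CREB, had 163, 137, 57.5 and 130.0 CPM in the Juvenile-NCD mice and 56.6, 33.6, 25.8 and 23.5 CPM in the Juvenile-HFD mice. Juvenile-NCD replicate 3 lay just above Juvenile-HFD replicate 1, without overlap (log2 fold change -1.81, SE 0.30, edgeR adjusted p = 0.0117). For Sik1 the edgeR adjusted p was 0.0565 without Juvenile-HFD replicate 3, in a range of 9.9e-65 to 0.0565 over the 16 alternatives. The number of these genes that fell was 3 without Juvenile-HFD replicate 3 and 12 without Juvenile-HFD replicate 1. Outside the lists, Dusp8 (ENSMUSG00000037887.11, chromosome 7 from 142079490 to 142095843), a phosphatase of stress-activated MAP kinases, had 87.0, 92.3, 87.5 and 82.3 CPM in the Juvenile-NCD mice and 58.2, 44.7, 52.1 and 50.4 CPM in the Juvenile-HFD mice. Both groups of Dusp8 were tight and apart (log2 fold change -0.77, SE 0.09, edgeR adjusted p = 0.00136). Tob2, an antiproliferative gene of the BTG and TOB family, fell by a log2 fold change of -0.70, from 349 ± 39.7 to 214 ± 11.3 CPM (SD, n = 4).

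Per1 (ENSMUSG00000020893.17, chromosome 11 from 69095217 to 69109960), a repressor of the circadian clock that glucocorticoids and cAMP also induce, had 199, 238, 151 and 212 CPM in the Juvenile-NCD mice and 146, 118, 129 and 108 CPM in the Juvenile-HFD mice. Juvenile-NCD replicate 3 lay just above the highest HFD mouse, and Per1 fell with a log2 fold change of -0.67 (SE 0.13, edgeR adjusted p = 0.0250). In adults Per1 had 97.7, 91.5, 82.3 and 99.0 CPM in the Adult-NCD mice and 123, 128, 133 and 123 CPM in the Adult-HFD mice. The adult fold change pointed up (log2 fold change 0.45, edgeR adjusted p = 0.111), and the interaction of diet and age was -1.14 (SE 0.17, edgeR adjusted p = 0.0440). In juvenile mice the edgeR adjusted p of Per1 was 0.0913 without Juvenile-NCD replicate 2, 0.0819 without Juvenile-NCD replicate 4, 0.0675 without Juvenile-HFD replicate 2, 0.0720 without Juvenile-HFD replicate 3 and 0.0799 without Juvenile-HFD replicate 4, in a range of 4.04e-10 to 0.0913 over the 16 alternatives. Of 24 circadian clock genes Per1 was the 1 called, with 16 lower and a median of -0.07 (-0.10 without Juvenile-NCD replicate 3 to -0.04 without Juvenile-NCD replicate 1, with 7 to 10 higher), and 2 fell when Juvenile-NCD replicate 3 or Juvenile-HFD replicate 1 was left out. Among clock genes no higher and 6 lower genes had an unadjusted p under 0.05, and DESeq2 called no higher and 1 lower. Of 24 glucocorticoid-responsive genes 2 fell, Per1 and Dusp1, a MAP kinase phosphatase gene, with 13 lower and a median of -0.05 (-0.28 without Juvenile-HFD replicate 1 to 0.05 without Juvenile-HFD replicate 4, with 9 to 14 higher). Of its 24 members 14 are in other lists, among them both that fell. For this list 2 higher and 7 lower genes had an unadjusted p under 0.05, and DESeq2 called 1 higher and 3 lower. The number of them that fell was 0 when Juvenile-NCD replicate 2, Juvenile-HFD replicate 2, Juvenile-HFD replicate 3 or Juvenile-HFD replicate 4 was left out, 1 without Juvenile-NCD replicate 4 and 4 without Juvenile-HFD replicate 1. For Dusp1 the edgeR adjusted p of 0.0494 was 0.102 without Juvenile-NCD replicate 2, 0.0851 without Juvenile-HFD replicate 1, 0.127 without Juvenile-HFD replicate 2, 0.111 without Juvenile-HFD replicate 3 and 0.0898 without Juvenile-HFD replicate 4, in a range of 3.66e-25 to 0.127 over the 16 alternatives.

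**Figure D3:**
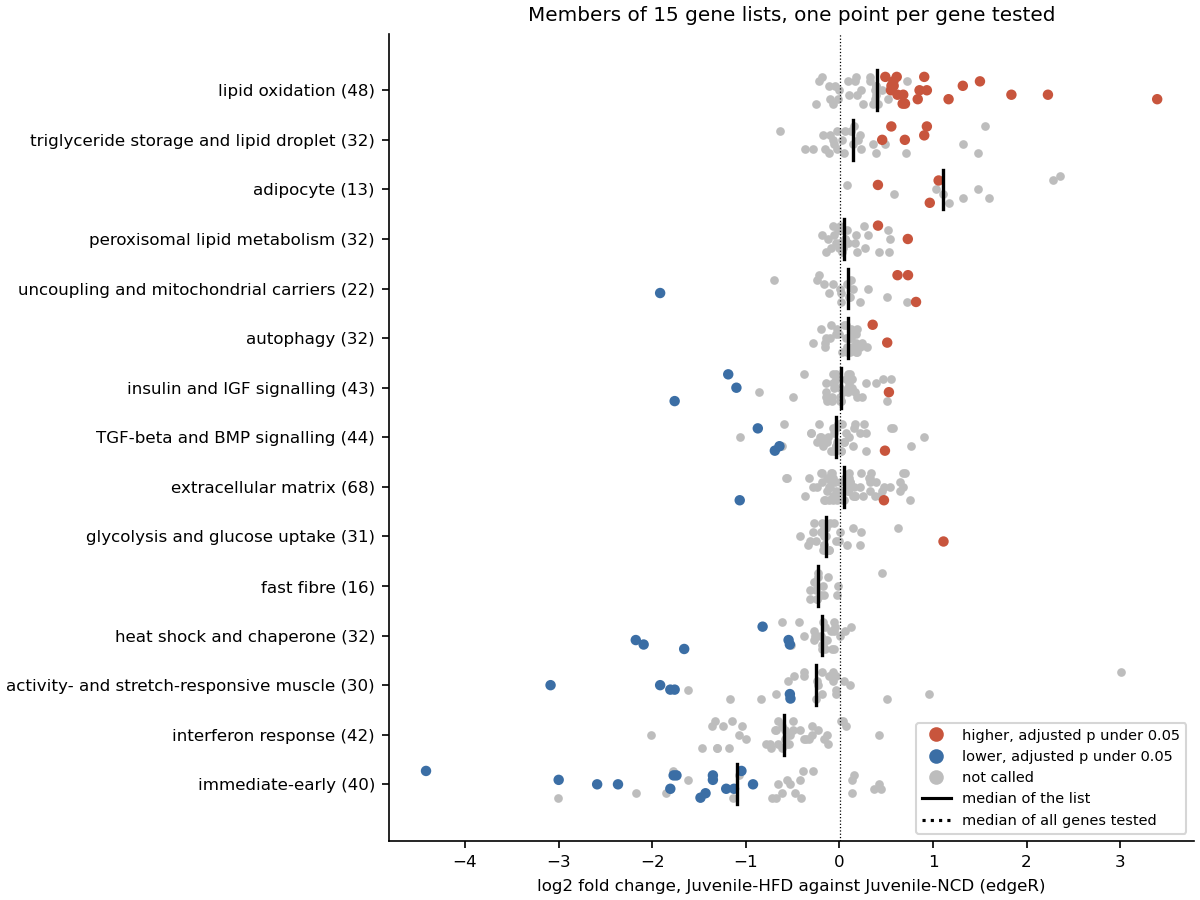
Log2 fold change of Juvenile-HFD against Juvenile-NCD for the members of 15 gene lists, with 1 point per gene tested (number in brackets), coloured where the adjusted p of edgeR's quasi-likelihood test was under 0.05. The black lines are list medians, from -1.10 for immediate-early genes to 1.11 for adipocyte markers, and the dotted line is the median of all genes tested.

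Short motifs known from genes induced by cAMP, clock factors or stress were searched in the promoters of the called genes. RefSeq promoters (GRCm38.p6, 250 bases before to 50 after the start) matched 59 of the higher and 51 of the lower genes by symbol, among 32851 windows in all, and both strands were searched for exact matches. The cAMP response element (CRE, TGACGTCA) was in 6 of 72 windows of lower genes (8.33%), in 0 of 80 windows of higher genes, in 2.85% of windows of all genes tested and in 1.79% of all windows. The E-box CACGTG was in 18.1% of windows of lower genes, 7.5% of higher genes, 9.63% of genes tested and 7.15% of all windows. The AP-1 motif TGANTCA was in 1.39%, 7.5%, 5.15% and 7.81% in the same order, and the D-box TTATGTAA in 1.39%, 0, 0.536% and 0.938%. The CArG box of serum response factor was in 2.78% of windows of lower genes, in 0 of those of higher genes, in 1.31% of genes tested and in 1.63% of all windows. The PPAR DR1 element (0.0396% of all windows), the glucocorticoid response element (0.00913%) and the carbohydrate response element (0) were in no window of a called gene. A match is a description of these letters, and no binding was measured. Of the lower genes matched, 6 hold the CRE and 13 the E-box, while Jun, Klf2 and the heat shock genes that fell hold neither. The windows printed come from 6 of these genes and were chosen because they hold a match, of which Dusp8, Dusp1 and Btg2 hold the CRE, and Otud1, Irs2, Per1 and Dusp1 the E-box. The edgeR adjusted p of Btg2, an antiproliferative gene, was 0.0288, and it was 0.0586 without Juvenile-NCD replicate 1, 0.0895 without Juvenile-NCD replicate 2, 0.0850 without Juvenile-HFD replicate 2, 0.0988 without Juvenile-HFD replicate 3 and 0.0763 without Juvenile-HFD replicate 4, in a range of 1.66e-140 to 0.0988 over the 16 alternatives, and its log2 fold change was -2.59 and -3.25 without Juvenile-HFD replicate 1. They are printed on the strand of the gene with the matches in capitals, Dusp8 from chr7:142095235-142095534, Dusp1 from chr17:26508423-26508722, Btg2 from chr1:134079106-134079405, Otud1 from chr2:19657481-19657780, Irs2 from chr8:11008880-11009179 and Per1 from chr11:69098699-69098998.
Dusp8: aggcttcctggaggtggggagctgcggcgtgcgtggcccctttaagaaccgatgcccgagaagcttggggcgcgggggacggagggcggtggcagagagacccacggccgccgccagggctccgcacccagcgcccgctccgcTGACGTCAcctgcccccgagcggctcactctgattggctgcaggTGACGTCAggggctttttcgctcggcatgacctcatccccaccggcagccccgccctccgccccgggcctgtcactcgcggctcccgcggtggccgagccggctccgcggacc
Dusp1: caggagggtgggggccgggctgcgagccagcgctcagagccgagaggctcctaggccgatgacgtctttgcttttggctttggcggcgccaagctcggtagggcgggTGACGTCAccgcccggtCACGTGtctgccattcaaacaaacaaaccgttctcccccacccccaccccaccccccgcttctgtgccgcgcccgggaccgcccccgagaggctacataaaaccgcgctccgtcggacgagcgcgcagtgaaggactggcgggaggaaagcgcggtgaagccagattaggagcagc
Btg2: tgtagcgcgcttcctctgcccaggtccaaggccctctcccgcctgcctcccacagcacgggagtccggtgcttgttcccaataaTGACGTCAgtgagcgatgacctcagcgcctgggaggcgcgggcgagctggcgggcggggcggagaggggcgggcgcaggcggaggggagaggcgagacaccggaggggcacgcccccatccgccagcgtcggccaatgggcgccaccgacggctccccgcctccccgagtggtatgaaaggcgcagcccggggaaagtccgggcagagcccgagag
Otud1: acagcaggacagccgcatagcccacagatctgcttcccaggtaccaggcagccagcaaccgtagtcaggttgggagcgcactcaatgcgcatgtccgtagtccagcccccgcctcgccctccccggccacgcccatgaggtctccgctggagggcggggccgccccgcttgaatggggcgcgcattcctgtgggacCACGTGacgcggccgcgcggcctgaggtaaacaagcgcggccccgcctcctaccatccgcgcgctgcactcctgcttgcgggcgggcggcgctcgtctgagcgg
Irs2: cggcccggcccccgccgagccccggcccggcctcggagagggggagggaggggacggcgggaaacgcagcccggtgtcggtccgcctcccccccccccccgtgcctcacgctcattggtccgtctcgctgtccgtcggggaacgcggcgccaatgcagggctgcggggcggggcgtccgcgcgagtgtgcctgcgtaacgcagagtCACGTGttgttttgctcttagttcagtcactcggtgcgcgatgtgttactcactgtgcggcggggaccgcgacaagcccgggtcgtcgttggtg
Per1: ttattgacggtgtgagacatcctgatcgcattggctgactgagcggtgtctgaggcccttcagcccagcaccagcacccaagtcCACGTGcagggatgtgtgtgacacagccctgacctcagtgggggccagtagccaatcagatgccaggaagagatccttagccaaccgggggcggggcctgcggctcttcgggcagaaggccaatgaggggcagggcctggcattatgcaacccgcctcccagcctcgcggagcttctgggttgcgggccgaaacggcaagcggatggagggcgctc

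**Figure D4:**
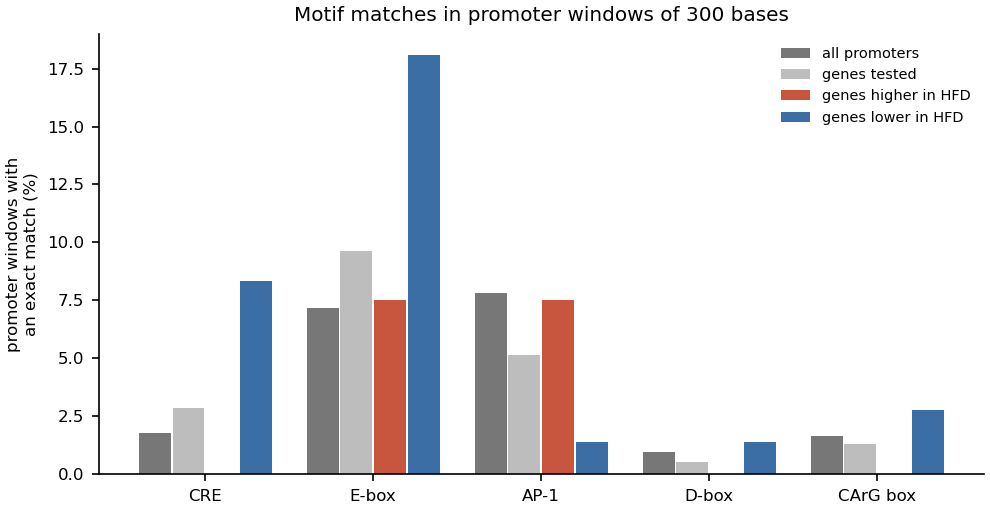
Percent of promoter windows of 300 bases with an exact match to each motif, for all promoters, genes tested, and genes higher and lower in Juvenile-HFD muscle at an adjusted p under 0.05. The lower genes have 18.1% of windows with an E-box and 8.33% with a CRE.

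Heat shock and chaperone genes were nearly all lower, 29 of 32, with a median of -0.18, and 6 fell, 10 without Juvenile-HFD replicate 1. In the heat shock list no higher and 16 lower genes had an unadjusted p under 0.05, and DESeq2 called no higher and 10 lower. Dnajb1 (ENSMUSG00000005483.10, chromosome 8 from 83608193 to 83612653), an Hsp40 co-chaperone gene under heat shock factor, had 47.7, 50, 17.6 and 45.1 CPM in the Juvenile-NCD mice and 11.1, 11.9, 13.3 and 14.6 CPM in the Juvenile-HFD mice. Juvenile-NCD replicate 3 lay near the HFD mice, the groups did not overlap, and Dnajb1 fell with a log2 fold change of -1.66 (SE 0.25, edgeR adjusted p = 0.00756). Dnaja1 (ENSMUSG00000028410.13, chromosome 4 from 40722150 to 40737149), another Hsp40 gene, had 76.2, 78.2, 70.8 and 87.4 CPM in the Juvenile-NCD mice and 50.3, 45.9, 41.6 and 39.3 CPM in the Juvenile-HFD mice. All HFD mice were lower (log2 fold change -0.82, SE 0.10, edgeR adjusted p = 0.00145), and 16.6% of its sequence is shared with other loci. Dnajb5 fell by -0.54 on the log2 scale. Hspa1b (ENSMUSG00000090877.3, chromosome 17 from 34956436 to 34959238) and Hspa1a encode the inducible Hsp70 and share 55.8% and 54.2% of their sequence with other loci, so their counts are uncertain gene by gene. Hspa1b had 22.6, 42.0, 18.3 and 45.4 CPM in the Juvenile-NCD mice and 11.99, 7.91, 2.84 and 5.72 CPM in the Juvenile-HFD mice, without overlap, and a log2 fold change of -2.18 (edgeR adjusted p = 0.0117). Hspa1a had a log2 fold change of -2.09 (edgeR adjusted p = 0.0157), and its edgeR adjusted p was 0.0540 without Juvenile-NCD replicate 2, 0.0630 without Juvenile-HFD replicate 3 and 0.0512 without Juvenile-HFD replicate 4, in a range of 4.12e-56 to 0.0630 over the 16 alternatives. Hspb1, a small heat shock protein gene with 47.3% of its sequence shared, fell by a log2 fold change of -0.53 (edgeR adjusted p = 0.0158), and its edgeR adjusted p was 0.0695 without Juvenile-NCD replicate 2, 0.0542 without Juvenile-HFD replicate 3 and 0.354 with all 16 libraries in 1 fit, in a range of 4.89e-06 to 0.354 over the 16 alternatives. In adults 18 of 32 genes of the list were lower, with a median of -0.03. The unfolded protein and integrated stress response list had 20 of 38 genes tested higher and 18 lower, a median of 0.01 (-0.05 without Juvenile-HFD replicate 2 to 0.05 without Juvenile-HFD replicate 1, with 15 to 20 higher), 7 genes at an unadjusted p under 0.05 (1 higher, 6 lower), 1 called by DESeq2 (lower) and 0 by edgeR.

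The TGF-beta and BMP list of 44 genes had 25 lower, a median of -0.03 (-0.07 without Juvenile-NCD replicate 2 to 0.01 without Juvenile-NCD replicate 4, with 17 to 23 higher), 3 that fell and 1 that rose. In that list 6 higher and 6 lower genes had an unadjusted p under 0.05, and DESeq2 called 1 higher and 3 lower. Smad3 (ENSMUSG00000032402.12, chromosome 9 from 63646767 to 63757994), which carries the TGF-beta signal to the nucleus, had 201, 176, 185 and 201 CPM in the Juvenile-NCD mice and 141, 110.5, 117 and 121 CPM in the Juvenile-HFD mice. The groups did not overlap (log2 fold change -0.64, SE 0.09, edgeR adjusted p = 0.00453), and the adjusted p was 0.213 with all 16 libraries in 1 fit, in a range of 4.71e-09 to 0.213 over the 16 alternatives. Id1 (ENSMUSG00000042745.9, chromosome 2 from 152736251 to 152737410), a BMP target that blocks basic helix-loop-helix factors, had 40.3, 51.2, 41.8 and 42.3 CPM in the Juvenile-NCD mice and 27.8, 26.3, 29.9 and 24.9 CPM in the Juvenile-HFD mice. It fell in every HFD mouse below every NCD mouse (log2 fold change -0.69, SE 0.10, edgeR adjusted p = 0.00592), and its edgeR adjusted p was 0.267 with all 16 libraries in 1 fit, in a range of 1.55e-07 to 0.267 over the 16 alternatives. Skil, a repressor of SMAD factors, fell by a log2 fold change of -0.87. Tgfbr3, the co-receptor betaglycan, rose by 0.49, with an edgeR adjusted p of 0.0371 that was 0.0657 to 0.137 when any 1 mouse but Juvenile-HFD replicate 1 was left out and 0.110 with all 16 libraries in 1 fit, in a range of 0.000251 to 0.137 over the 16 alternatives.

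Interferon-stimulated genes were lower without a call. The interferon list had 4 of 42 genes tested higher and 38 lower, a median of -0.59 (-0.80 without Juvenile-NCD replicate 3 to -0.35 without Juvenile-NCD replicate 2, with 1 to 8 higher), 14 genes at an unadjusted p under 0.05 (1 higher, 13 lower), 2 called by DESeq2 (1 higher, 1 lower) and 0 by edgeR (on the higher side 1 without Juvenile-NCD replicate 3 and on the lower side 1 without Juvenile-NCD replicate 4 and 2 without Juvenile-NCD replicate 3). Without a filter on low counts edgeR called 24 of them lower and 1 higher. That setting called 420 higher and 353 lower genes in all, against 73 and 67 with the filter. Isg15 (ENSMUSG00000035692.7, chromosome 4 from 156199424 to 156200818), a ubiquitin-like modifier, had 8.94, 16.3, 3.19 and 3.69 CPM in the Juvenile-NCD mice and 2.19, 2.53, 1.28 and 1.91 CPM in the Juvenile-HFD mice. Juvenile-NCD replicates 1 and 2 were highest, and the groups did not overlap (log2 fold change -2.02, SE 0.46, edgeR adjusted p = 0.0632). Without Juvenile-NCD replicate 2 its log2 fold change was -1.41. For Isg15 the edgeR adjusted p was 0.0202 without Juvenile-NCD replicate 3, 0.0426 without Juvenile-NCD replicate 4, 0.0296 by DESeq2 on the same genes, 0.0315 by DESeq2 at its defaults and 3.22e-16 without a filter on low counts, in a range of 3.22e-16 to 0.173 over the 16 alternatives. Bst2, which tethers budding virus to the cell, had 54.3, 76.7, 18.8 and 20.0 CPM in the Juvenile-NCD mice and 16.7, 18.0, 16.9 and 23.1 CPM in the Juvenile-HFD mice, with overlap. The summed level of the list was 1288, 1193, 465 and 480.1 CPM in the Juvenile-NCD mice and 587, 612, 495 and 575 CPM in the Juvenile-HFD mice. Only Juvenile-NCD replicates 1 and 2 stood above the HFD mice, and replicates 3 and 4 lay below all 4 of them. In adults 38 of 40 genes were higher on the HFD, with a median of 0.58, and 27 genes had an unadjusted interaction p under 0.05. Antigen presentation genes had 7 of 21 genes tested higher and 14 lower, a median of -0.24 (-0.36 without Juvenile-NCD replicate 4 to -0.07 without Juvenile-NCD replicate 1, with 6 to 9 higher), 4 genes at an unadjusted p under 0.05 (2 higher, 2 lower), 1 called by DESeq2 (higher) and 0 by edgeR (on the higher side 1 without Juvenile-NCD replicate 3). Inflammation and NF-kB genes had 30 of 37 genes tested higher and 7 lower, a median of 0.17 (0.01 without Juvenile-HFD replicate 2 to 0.24 without Juvenile-HFD replicate 3, with 21 to 32 higher), 7 genes at an unadjusted p under 0.05 (5 higher, 2 lower), 1 called by DESeq2 (lower) and 0 by edgeR (on the lower side 1 without Juvenile-NCD replicate 1).

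Of the marker lists for cells other than muscle fibres, only those of adipocytes and of fibroblasts held a gene called by edgeR, and in bulk tissue more or fewer cells of a type cannot be told apart from more or less RNA per cell. Of 16 adipocyte markers 13 were tested, all 13 higher, with a median of 1.11 (0.71 without Juvenile-HFD replicate 2 to 1.40 without Juvenile-NCD replicate 2, with 12 to 13 higher) and 3 called, and none of the 16 was at 0 in the juvenile mice. Among these markers 12 higher and no lower genes had an unadjusted p under 0.05, and DESeq2 called 5 higher and no lower. Their summed level was 389, 417, 371 and 345 CPM in the Juvenile-NCD mice and 544, 677, 455 and 536 CPM in the Juvenile-HFD mice. All HFD mice were above all NCD mice, with Juvenile-HFD replicate 2 the highest. The most abundant, Fabp4 (ENSMUSG00000062515.3, chromosome 3 from 10204088 to 10208576), a fatty acid-binding protein of adipocytes and capillaries, had 326, 309.8, 300 and 268 CPM in the Juvenile-NCD mice and 412, 397, 366 and 427 CPM in the Juvenile-HFD mice, without overlap (log2 fold change 0.41, edgeR adjusted p = 0.0335). The edgeR adjusted p of Fabp4 was 0.0565 to 0.118 when any 1 mouse but Juvenile-NCD replicate 1 was left out and 0.374 with all 16 libraries in 1 fit, in a range of 0.000235 to 0.374 over the 16 alternatives. Trarg1 and Adig, genes of the adipocyte, rose by 1.06 and 0.97. Their edgeR adjusted p was 0.0522 to 0.129 when any 1 mouse but Juvenile-HFD replicate 1 was left out, in a range of 8.55e-05 to 0.129 over the 16 alternatives for Trarg1, and was 0.0543 to 0.164 when any 1 of the 8 mice was left out and 0.0817 with all 16 libraries in 1 fit, in a range of 0.00929 to 0.164 over the 16 alternatives for Adig. The number of adipocyte markers that rose was 0 when Juvenile-NCD replicate 2, Juvenile-NCD replicate 3, Juvenile-NCD replicate 4, Juvenile-HFD replicate 2, Juvenile-HFD replicate 3 or Juvenile-HFD replicate 4 was left out and 1 when Juvenile-NCD replicate 1 or Juvenile-HFD replicate 1 was left out. Of the 16 adipocyte markers 3 are in other lists, and the part of adipocytes in the rise of lipid genes was not tested. Brown adipocyte markers had 5 of 7 genes tested higher and 2 lower, a median of 0.25 (0.12 without Juvenile-HFD replicate 2 to 0.44 without Juvenile-HFD replicate 1, with 4 to 5 higher), 1 gene at an unadjusted p under 0.05 (higher), 1 called by DESeq2 (higher) and 0 by edgeR. Ucp1, which defines these cells, was at 0 in all 8 mice.

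Connective tissue and nerve markers were highest in Juvenile-HFD replicate 2. The 13 markers of fibroblasts and fibro-adipogenic progenitors had 9 higher, a median of 0.31 (0.22 without Juvenile-HFD replicate 2 to 0.39 without Juvenile-NCD replicate 4, with 9 to 11 higher) and 1 called, Pi16, a marker of a fibroblast progenitor state. Pi16 had 19.5, 25.8, 16.5 and 28.3 CPM in the Juvenile-NCD mice and 38.1, 62.7, 35.3 and 40.2 CPM in the Juvenile-HFD mice, without overlap (log2 fold change 0.97, edgeR adjusted p = 0.0340). Its edgeR adjusted p was 0.0809 without Juvenile-NCD replicate 1, 0.0710 without Juvenile-NCD replicate 2, 0.0664 without Juvenile-NCD replicate 3, 0.0606 without Juvenile-HFD replicate 2, 0.0635 without Juvenile-HFD replicate 4 and 0.0893 with all 16 libraries in 1 fit, in a range of 2.4e-14 to 0.0893 over the 16 alternatives. Among fibroblast markers 8 higher and no lower genes had an unadjusted p under 0.05, and DESeq2 called 3 higher and no lower. The summed level of that list was 3501, 5447, 5209.8 and 5274 CPM in the Juvenile-NCD mice and 3830.0, 7834, 4126 and 5419 CPM in the Juvenile-HFD mice, with Gsn the most abundant, and the groups overlapped. Tendon and myotendinous junction markers had 9 of 11 genes tested higher and 2 lower, a median of 0.61 (0.03 without Juvenile-HFD replicate 2 to 0.75 without Juvenile-HFD replicate 3, with 7 to 10 higher), 3 genes at an unadjusted p under 0.05 (all higher), and none called by DESeq2 or edgeR. Without a filter on low counts, a setting with 420 higher genes in all against 73, edgeR called 7 of these markers higher and 0 lower. Their summed level was 324, 546, 444 and 604 CPM in the Juvenile-NCD mice and 537, 1309, 506 and 609 CPM in the Juvenile-HFD mice, with Thbs4 the most abundant. Nerve and Schwann cell markers had 11 of 13 genes tested higher and 2 lower, a median of 0.42 (0.17 without Juvenile-HFD replicate 2 to 0.55 without Juvenile-HFD replicate 3, with 10 to 11 higher), 4 genes at an unadjusted p under 0.05 (all higher), and none called by DESeq2 or edgeR. Unfiltered, edgeR called 4 nerve markers higher and 0 lower. Macrophage markers, led by Lyz2, had 13 of 14 genes tested higher and 1 lower, a median of 0.18 (0.02 without Juvenile-HFD replicate 2 to 0.42 without Juvenile-NCD replicate 3, with 8 to 13 higher), 1 gene at an unadjusted p under 0.05 (higher), 0 called by DESeq2 and 0 by edgeR (on the higher side 1 without Juvenile-HFD replicate 1). The 68 extracellular matrix genes had 40 higher, a median of 0.05 (-0.06 without Juvenile-HFD replicate 2 to 0.11 without Juvenile-HFD replicate 1, with 31 to 53 higher) and 2 called. Among matrix genes 16 higher and 4 lower genes had an unadjusted p under 0.05, and DESeq2 called 3 higher and no lower. The called genes were Fbln5, an elastic fibre gene, which rose by 0.48 on the log2 scale, and Adamts1, a secreted protease gene, which fell by a log2 fold change of -1.06. For Fbln5 the edgeR adjusted p was 0.0693 to 0.117 when any 1 mouse but Juvenile-HFD replicate 1 was left out and 0.492 with all 16 libraries in 1 fit, in a range of 0.00268 to 0.492 over the 16 alternatives. That of Adamts1 was 0.129 without Juvenile-NCD replicate 2, 0.0619 without Juvenile-HFD replicate 1, 0.124 without Juvenile-HFD replicate 2, 0.132 without Juvenile-HFD replicate 3, 0.0986 without Juvenile-HFD replicate 4, 0.0513 by DESeq2 on the same genes and 0.0556 by DESeq2 at its defaults, in a range of 1.07e-24 to 0.132 over the 16 alternatives. Without Juvenile-HFD replicate 1, 2 matrix genes rose. In adults 65 of 67 matrix genes were lower, at a median of -0.62, and 34 had an unadjusted interaction p under 0.05. The part of tissue taken along with the muscle in these values was not tested.

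**Figure D5:**
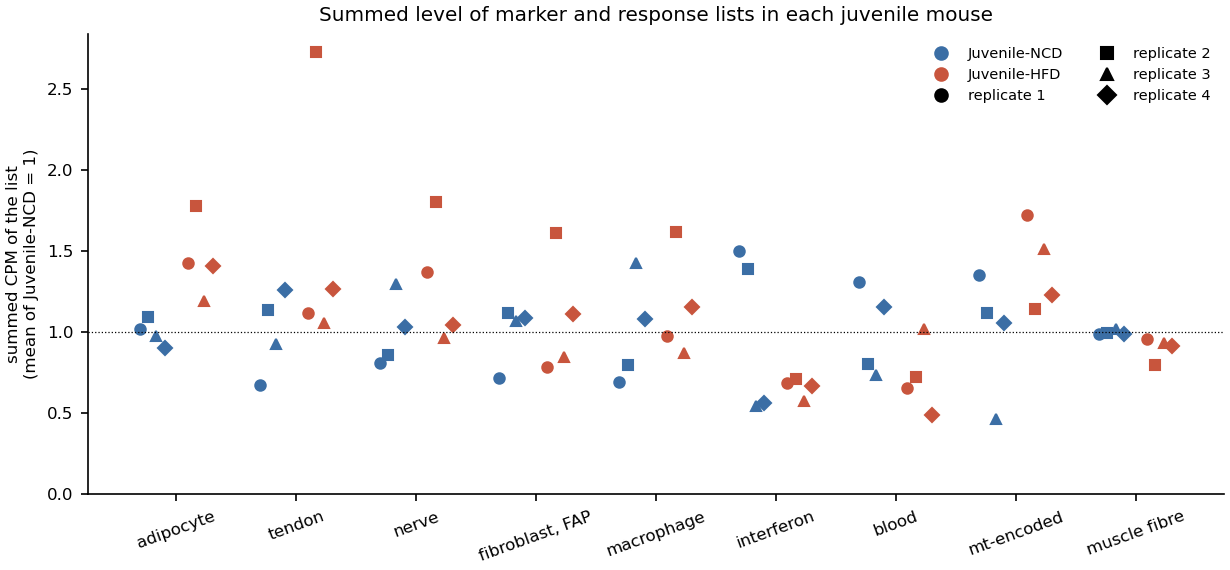
Summed CPM of 9 marker and response lists in each juvenile mouse, divided by the mean of the Juvenile-NCD mice, with blue points for NCD, red points for HFD and the marker shape for the replicate number. Juvenile-HFD replicate 2 is the highest mouse for adipocyte, tendon, nerve, fibroblast and macrophage markers and for muscle fibre markers the lowest, and Juvenile-NCD replicates 1 and 2 are the highest for interferon genes.

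Other cell types gave no call by edgeR. Endothelial markers had 8 of 13 genes tested higher and 5 lower, a median of 0.06 (-0.01 without Juvenile-NCD replicate 3 to 0.10 without Juvenile-NCD replicate 1, with 6 to 12 higher), 2 genes at an unadjusted p under 0.05 (both higher), and none called by DESeq2 or edgeR. Smooth muscle and pericyte markers had 7 of 12 genes tested higher and 5 lower, a median of 0.02 (-0.03 without Juvenile-HFD replicate 4 to 0.08 without Juvenile-NCD replicate 1, with 6 to 8 higher), 1 gene at an unadjusted p under 0.05 (higher), 0 called by DESeq2 and 0 by edgeR (on the higher side 1 without Juvenile-HFD replicate 1). Blood markers, among them globin genes that share sequence, had 1 of 8 genes tested higher and 7 lower, a median of -0.50 (-0.73 without Juvenile-HFD replicate 3 to -0.31 without Juvenile-HFD replicate 4, with 0 to 2 higher), 3 genes at an unadjusted p under 0.05 (all lower), and none called by DESeq2 or edgeR. Their summed level was 472, 289, 265 and 416 CPM in the Juvenile-NCD mice and 236, 262, 369 and 177 CPM in the Juvenile-HFD mice, with Hbb-bs the most abundant and the groups overlapping. Neutrophil and mast cell markers had 6 of 7 genes tested higher and 1 lower, a median of 0.54 (0.39 without Juvenile-NCD replicate 2 to 0.69 without Juvenile-HFD replicate 1, with 5 to 6 higher), 4 genes at an unadjusted p under 0.05 (3 higher, 1 lower), and none called by DESeq2 or edgeR. Of 16 lymphocyte markers 2 passed the filter, Ighm and Cd4, and of 12 markers of epidermis and hair follicle 4 passed it, with Krt1 at 0 in all 8 mice. For lymphocytes that left 1 of 2 genes tested higher and 1 lower, a median of 0.14 (-0.02 without Juvenile-HFD replicate 1 to 0.44 without Juvenile-NCD replicate 4, with 1 to 2 higher), 1 gene at an unadjusted p under 0.05 (higher), 0 called by DESeq2 and 0 by edgeR (on the higher side 1 without Juvenile-HFD replicate 2). Epidermis and hair follicle had 2 of 4 genes tested higher and 2 lower, a median of 0.09 (-0.03 without Juvenile-NCD replicate 4 to 0.16 without Juvenile-NCD replicate 2, with 2 to 3 higher), 0 genes at an unadjusted p under 0.05, and none called by DESeq2 or edgeR. Ighm, the immunoglobulin heavy chain of B cells, had an edgeR adjusted p of 0.183, which was 0.0461 without Juvenile-HFD replicate 2 and 0.00512 without a filter on low counts, in a range of 0.00512 to 0.789 over the 16 alternatives. Satellite cell markers had 7 of 13 genes tested higher and 6 lower, a median of 0.03 (-0.07 without Juvenile-NCD replicate 4 to 0.09 without Juvenile-HFD replicate 1, with 5 to 8 higher), 2 genes at an unadjusted p under 0.05 (both lower), 0 called by DESeq2 and 0 by edgeR (on the lower side 1 without Juvenile-HFD replicate 1).

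Muscle fibre genes leaned slightly lower. The 12 fibre markers had 0 of 12 genes tested higher and 12 lower, a median of -0.20, 3 genes at an unadjusted p under 0.05 (all lower), and none called by DESeq2 or edgeR. Their summed level was 151875, 152965, 156053 and 151945 CPM in the Juvenile-NCD mice and 147004, 122521, 142795 and 140080.3 CPM in the Juvenile-HFD mice. Juvenile-HFD replicate 2 was the lowest, and without it the median was -0.16. Fast fibre genes had 1 of 16 genes tested higher and 15 lower, a median of -0.23 (-0.27 without Juvenile-HFD replicate 1 to -0.17 without Juvenile-HFD replicate 2, with 1 to 3 higher), 6 genes at an unadjusted p under 0.05 (all lower), 1 called by DESeq2 (lower) and 0 by edgeR (on the higher side 1 without Juvenile-HFD replicate 1). Slow fibre genes had 8 of 15 genes tested higher and 7 lower, a median of 0.04 (-0.06 without Juvenile-HFD replicate 2 to 0.10 without Juvenile-NCD replicate 2, with 5 to 10 higher), 2 genes at an unadjusted p under 0.05 (1 higher, 1 lower), 1 called by DESeq2 (lower) and 0 by edgeR (on the lower side 1 without Juvenile-HFD replicate 4). Of the fibre markers all 12, and of the 16 fast fibre genes 15, are in other lists. Sarcomere genes had 14 of 53 genes tested higher and 39 lower, a median of -0.12, 14 genes at an unadjusted p under 0.05 (1 higher, 13 lower), 1 called by DESeq2 (lower) and 0 by edgeR (on the higher side 1 without Juvenile-HFD replicate 1 and on the lower side 1 without Juvenile-NCD replicate 1 and 2 without Juvenile-HFD replicate 4). Among these, Actc1, the cardiac actin gene kept at a low level in grown skeletal muscle, had 2107, 1509, 1464 and 1268 CPM in the Juvenile-NCD mice and 602, 418, 912 and 1209 CPM in the Juvenile-HFD mice. The groups did not overlap, but its edgeR adjusted p of 0.0945 was 0.0327 without Juvenile-HFD replicate 4 and 6.38e-23 without a filter on low counts, in a range of 6.38e-23 to 0.195 over the 16 alternatives. Calcium handling and excitation genes had 17 of 52 genes tested higher and 35 lower, a median of -0.04 (-0.08 without Juvenile-HFD replicate 1 to -0.02 without Juvenile-HFD replicate 2, with 11 to 21 higher), 7 genes at an unadjusted p under 0.05 (2 higher, 5 lower), 2 called by DESeq2 (both lower) and 0 by edgeR. The neuromuscular junction and denervation list had 18 of 28 lower, a median of -0.05 (-0.08 without Juvenile-HFD replicate 2 to -0.02 without Juvenile-NCD replicate 2, with 10 to 13 higher) and 1 called, Myog, the myogenic factor also induced by denervation, at a log2 fold change of -1.79. For the junction list 1 higher and 4 lower genes had an unadjusted p under 0.05, and DESeq2 called no higher and 1 lower. Of 31 muscle-secreted factors, with 18 higher and a median of 0.09 (-0.06 without Juvenile-HFD replicate 2 to 0.13 without Juvenile-NCD replicate 4, with 14 to 20 higher), 1 rose and 1 fell. Of the 35 secreted factors listed, 19 are in other lists. Here 5 higher and 5 lower genes had an unadjusted p under 0.05, and DESeq2 called 2 higher and 3 lower. The gene that rose was Angptl4, an inhibitor of lipoprotein lipase in the lipid oxidation list as well, and the gene that fell Gdnf, a growth factor for motor nerves, which went from 3.23 ± 0.867 to 1.15 ± 0.193 CPM (SD, n = 4). The adjusted p of Gdnf, 0.0224, was 0.0921 without Juvenile-NCD replicate 2, 0.0692 without Juvenile-NCD replicate 4, 0.0542 without Juvenile-HFD replicate 2, 0.0613 without Juvenile-HFD replicate 3 and 0.0507 without Juvenile-HFD replicate 4, in a range of 0.000282 to 0.0921 over the 16 alternatives.

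Mitochondrially encoded protein genes had 13 of 13 genes tested higher and 0 lower, a median of 0.49 (0.26 without Juvenile-NCD replicate 3 to 0.64 without Juvenile-NCD replicate 1, with 13 higher), 4 genes at an unadjusted p under 0.05 (all higher), and none called by DESeq2 or edgeR. Without a filter on low counts, a setting with 420 higher genes in all against 73, edgeR called 11 of them higher and 0 lower. Part of their sequence is shared with nuclear copies, as for mt-Co2 with 99.5% and mt-Co1 with 39.8%. The nuclear-encoded respiratory chain had 34 of 75 genes tested higher and 41 lower, a median of 0.00 (-0.04 without Juvenile-NCD replicate 4 to 0.06 without Juvenile-HFD replicate 2, with 21 to 57 higher), 0 genes at an unadjusted p under 0.05, and none called by DESeq2 or edgeR. Mitochondrial biogenesis and dynamics genes had 9 of 28 genes tested higher and 19 lower, a median of -0.03, 1 gene at an unadjusted p under 0.05 (lower), and none called by DESeq2 or edgeR. The median of this list was -0.006 without Juvenile-HFD replicate 2, with 13 higher, and -0.05 without Juvenile-HFD replicate 1, with 10 higher. Fatty acid synthesis genes had 17 of 24 genes tested higher and 7 lower, a median of 0.09 (0.05 without Juvenile-HFD replicate 2 to 0.12 without Juvenile-HFD replicate 1, with 15 to 19 higher), 4 genes at an unadjusted p under 0.05 (all higher), 1 called by DESeq2 (higher) and 0 by edgeR. Cholesterol synthesis and SREBP2 genes had 12 of 26 genes tested higher and 14 lower, a median of -0.03 (-0.06 without Juvenile-NCD replicate 1 to 0.02 without Juvenile-NCD replicate 3, with 9 to 15 higher), 2 genes at an unadjusted p under 0.05 (1 higher, 1 lower), and none called by DESeq2 or edgeR. Branched-chain amino acid breakdown had 14 of 25 genes tested higher and 11 lower, a median of 0.02 (-0.01 without Juvenile-HFD replicate 1 to 0.04 without Juvenile-HFD replicate 2, with 11 to 17 higher), 3 genes at an unadjusted p under 0.05 (all higher), 1 called by DESeq2 (higher) and 0 by edgeR. Amino acid transport and metabolism had 20 of 29 genes tested higher and 9 lower, a median of 0.09 (0.05 without Juvenile-NCD replicate 1 to 0.11 without Juvenile-HFD replicate 4, with 18 to 24 higher), 7 genes at an unadjusted p under 0.05 (5 higher, 2 lower), 2 called by DESeq2 (both higher) and 0 by edgeR (on the higher side 1 without Juvenile-HFD replicate 4). Polyamine, creatine and purine nucleotide genes had 11 of 29 genes tested higher and 18 lower, a median of -0.02 (-0.05 without Juvenile-HFD replicate 1 to 0.01 without Juvenile-NCD replicate 3, with 11 to 17 higher), 4 genes at an unadjusted p under 0.05 (1 higher, 3 lower), and none called by DESeq2 or edgeR. Cytosolic ribosomal proteins, many with processed pseudogenes, had 53 of 78 genes tested higher and 25 lower, a median of 0.03 (-0.01 without Juvenile-HFD replicate 1 to 0.06 without Juvenile-NCD replicate 2, with 38 to 58 higher), 3 genes at an unadjusted p under 0.05 (all higher), and none called by DESeq2 or edgeR. For ribosome biogenesis and MYC it was 12 of 39 genes tested higher and 27 lower, a median of -0.04 (-0.07 without Juvenile-NCD replicate 2 to -0.02 without Juvenile-NCD replicate 3, with 10 to 17 higher), 2 genes at an unadjusted p under 0.05 (both lower), 1 called by DESeq2 (lower) and 0 by edgeR. The cell cycle list had 18 of 44 genes tested higher and 26 lower, a median of -0.06 (-0.12 without Juvenile-HFD replicate 4 to -0.05 without Juvenile-HFD replicate 2, with 17 to 18 higher), 3 genes at an unadjusted p under 0.05 (2 higher, 1 lower), and none called by DESeq2 or edgeR. Angiogenesis and hypoxia genes had 24 of 35 genes tested higher and 11 lower, a median of 0.06 (0.05 without Juvenile-HFD replicate 2 to 0.11 without Juvenile-NCD replicate 1, with 21 to 26 higher), 9 genes at an unadjusted p under 0.05 (5 higher, 4 lower), 2 called by DESeq2 (both lower) and 0 by edgeR. Vegfa, the main growth factor for blood vessels, was the member with the smallest p, with 332, 325, 329.6 and 339 CPM in the Juvenile-NCD mice and 236, 216, 283 and 287 CPM in the Juvenile-HFD mice. The HFD mice were all below the NCD mice, but the edgeR adjusted p of 0.0895 was 0.0128 by DESeq2 on the same genes, 0.0115 by DESeq2 at its defaults and 0.00383 without a filter on low counts, in a range of 0.00383 to 0.254 over the 16 alternatives.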

How the data were processed

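Poly-A RNA of the tibialis anterior of 16 mice was sequenced, 1 library per mouse, with 4 mice in each of 4 groups of diet and age. The deposited values are raw counts of reads per gene, which the authors made with FastQC 0.12.1, Cutadapt, STAR 2.7.11a against GRCm38 and featureCounts 2.0.3. Strand and the treatment of reads with several matches are not given in the sources used here, so overlapping genes and genes sharing sequence are uncertain, and the share of a gene's windows of 75 bases found elsewhere is given where it matters. Of 55401 gene identifiers, 54349 matched Gencode M21 with the same version, 792 with another version and 260 not at all. The 8 juvenile libraries were fitted alone with edgeR 4.0.16 in R 4.3.3 (TMM factors, filterByExpr with a minimum count of 10, quasi-likelihood F test, 2-sided, adjusted by Benjamini and Hochberg over all genes tested), and the adult libraries likewise. All 16 libraries were fitted together for the interaction of diet and age. Fold changes are log2 of HFD over NCD. Each SE is the absolute log2 fold change or interaction term divided by the square root of the F statistic, so it restates the test. The mitochondrial share was compared by an exact permutation test. Genes with an adjusted p under 0.05 are said to rise or fall.

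Genes were named by a rule: the 15 with the smallest p and the 6 with the largest fold in each direction among those called, up to 5 called members of each list or else the 2 with the smallest p, the 2 most abundant members of each list, and the 5 with the smallest interaction p in each direction. It gave 226 genes, of which those that matter are printed. The members compared and the 55 lists were chosen with earlier results of these data known. Lists are described by counts and medians, without a test. Motifs were searched in RefSeq promoters of GRCm38.p6. The alternatives were DESeq2 1.42.0 on the same genes and at its defaults, RLE size factors, no mitochondrial genes, every gene with a count, only genes with 10 or more counts in each library, the replicate number as a block, all 16 libraries in 1 fit, and each library left out. The scripts were tested on simulated data. Depth was 14068762 to 15896282 counts in the juvenile libraries.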

Additional observations from a re-analysis of the deposited data

Results flagged for a closer look

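In 246 groups of 4 mice, for depth, mitochondrial share, list sums and the genes named, 12 had a mouse far from the other 3, measured by the gap to the nearest mouse over the range of the group. Chance flags about 1 in 20 independent groups of normal values. List sums share genes and many genes were chosen by their calls. The number expected here is therefore not known, and the 12 flagged groups are only described. Juvenile-HFD replicate 2 stood apart in 4 of them, with a low sum of the glycolysis and glucose uptake list (35748 CPM), a high sum of the tendon and myotendinous junction list (1309 CPM), and high levels of Thbs4 (525 CPM), which is itself a member of the tendon list, and Angptl4 (35.9 CPM). Juvenile-NCD replicate 3 was far below the other NCD mice for Dnajb1 (17.6 CPM) and Slc25a25 (269 CPM). Juvenile-NCD replicate 1 was lowest for the sum of fibroblast and fibro-adipogenic progenitor markers (3501 CPM) and for Plin2 (31.5 CPM). Juvenile-NCD replicate 2 was highest for Agpat2 (7.73 CPM). Juvenile-HFD replicate 4 was highest for the satellite cell sum (378 CPM) and for Tob2 (231 CPM), and Juvenile-HFD replicate 1 was highest for Trib1 (70.7 CPM). No cause was tested.

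The effect of the diet differed between juvenile and adult mice for Per1 (juvenile minus adult log2 fold change -1.14, edgeR adjusted p = 0.0440) and Jun (-1.80, edgeR adjusted p = 0.0451). Neither direction of this test gave a call when any 1 of 11 of the 16 libraries was left out.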

How the results depend on the processing

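The counts of genes depended on the tool and the filter. In juvenile mice edgeR gave 73 higher and 67 lower genes, DESeq2 184 and 190 on the same genes and 182 and 181 at its defaults, and edgeR 420 and 353 when no gene of low count was filtered out, 42 and 52 with all 16 libraries in 1 fit, and 446 and 292 by the thresholds of the methods. RLE size factors (72 and 67), leaving out mitochondrial genes (76 and 69) and asking for 10 counts in every library (73 and 67) moved little. The juvenile fit without a filter on low counts stood apart with the most calls. For Isg15 its edgeR adjusted p was 3.22e-16, against 0.0632 with the filter. Leaving out 1 library gave 31 to 93 higher and 27 to 99 lower genes. In adult mice edgeR gave 28 and 7, DESeq2 174 and 114 or, at its defaults, 163 and 97, and edgeR without a filter 141 and 133, with 5 to 47 and 2 to 27 when 1 library was left out. For the interaction, 0 genes lay above and 2 below by edgeR, with 1669 at an unadjusted p under 0.05, against 39 and 50 by DESeq2, 39 and 54 at its defaults and 157 and 124 unfiltered, and 0 to 60 and 0 to 23 when 1 library was left out. The mitochondrial difference of 3.64 percentage points ranged from 2.07 to 4.65. The cause was not tested. With the replicate number as a block the numbers were 98 and 101 in juvenile mice, 12 and 3 in adults and 0 and 0 for the interaction. Whether the numbers pair the samples is not given in the labels, and correlations this weak cannot decide it. Deviations of same-numbered juvenile mice correlated at 0.163, 0.0675, 0.00514 and -0.0653. Juvenile-NCD replicates 1 and 2 correlated best with their own number among the Juvenile-HFD mice, while 3 and 4 did not. Over all pairs of the 4 groups, same-numbered correlations ran from -0.0997 to 0.293. For the 66 single genes named, 402 values with 1 library left out kept their side of the threshold, 119 lost the call and 6 gained one. Under the other alternatives the numbers were 479, 26 and 18, and in neither case did a direction reverse. Whether depth limits the calls for genes of low level was not tested.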

Other observations

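Among genes outside the gene lists, Inmt (ENSMUSG00000003477.5, chromosome 6 from 55170626 to 55175043), which encodes indolethylamine N-methyltransferase, had 10.6, 11.9, 16.8 and 14.1 CPM in the Juvenile-NCD mice and 23.7, 24.6, 28.2 and 30.5 CPM in the Juvenile-HFD mice. All HFD mice were above all NCD mice, and Inmt rose by 1.00 on the log2 scale (SE 0.14, edgeR adjusted p = 0.00563). Its edgeR adjusted p was 0.204 with all 16 libraries in 1 fit, in a range of 1.32e-11 to 0.204 over the 16 alternatives. In adults its log2 fold change was -0.62 (edgeR adjusted p = 0.3997), and the interaction of 1.61 had an edgeR adjusted p of 0.207. Rab15 (ENSMUSG00000021062.15, chromosome 12 from 76797960 to 76822908), a small GTPase gene of endosome traffic, had 2.07, 2.87, 3.12 and 2.25 CPM in the Juvenile-NCD mice and 6.58, 8.92, 6.88 and 13.6 CPM in the Juvenile-HFD mice, without overlap (log2 fold change 1.80, edgeR adjusted p = 0.00453). The predicted gene Gm13091 (ENSMUSG00000085213.1, chromosome 4 from 150566869 to 150568544) had 0.716, 0.575, 0.747 and 0.751 CPM in the Juvenile-NCD mice and 9.65, 11.6, 4.54 and 2.04 CPM in the Juvenile-HFD mice. It rose by 3.31 on the log2 scale (SE 0.49, edgeR adjusted p = 0.00592), with Juvenile-HFD replicates 1 and 2 well above replicates 3 and 4, and in adults its log2 fold change was 0.51.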
